A study of Mus musculus with 10 samples.

Results

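Glycolysis and the response to hypoxia were followed through a list of 40 genes, drawn up by function from the 53801 genes counted: 17 glycolytic enzymes, 4 glucose and lactate carriers, 6 regulatory kinases, 4 genes of HIF and its hydroxylases, and 9 further HIF targets. The study asked which transcripts change when the transcription factor Creb3l1 is depleted in AtT20/D16v-F2 cells, a mouse pituitary tumour line of corticotroph origin that makes the hormone precursor POMC. All cells were stably transduced with lentivirus and grown in serum-supplemented DMEM. In 5 libraries the virus carried a non-targeting shRNA, and in the other 5 it carried *Creb3l1* shRNA1. Each shRNA was thus represented by 1 transduced line, and the p-values below measure only the spread between the 5 RNA samples of a line. The study's methods call the replicates of its experiments biological, while the labels do not say whether these samples came from separate cultures. A difference between the lines that arose in their making cannot be told apart from the depletion.

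Glycolysis splits glucose into pyruvate, and lactate dehydrogenase turns that pyruvate into lactate, so that a cell can make ATP without oxygen. Many of the genes of this pathway are targets of the hypoxia-inducible factor (HIF). Its alpha subunit is hydroxylated by the EGLN enzymes when oxygen is present and is then degraded. When oxygen is short the subunit pairs with ARNT and binds response elements whose core is ACGTG or GCGTG. The HIF alpha subunit is controlled mostly as a protein, which RNA counts do not measure.

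The libraries held 17420698 to 22205107 counts. *Creb3l1* was at 3689 ± 148 normalised counts (SD, n = 5) in the non-targeting line and at 1090.0 ± 59.2 in the knockdown line. Of 7 corticotroph markers 1, *Avpr1b*, had no read, and the summed level of the 7 was 150424 to 161539 normalised counts in the non-targeting libraries and 108547 to 115408 in the knockdown libraries. Most of this sum was *Pomc*, which fell (log2 fold change -0.51), as did *Tbx19* (-0.27) and *Pcsk1* (-0.46), whereas *Neurod1* (0.62) and *Pitx1* (0.36) rose and *Crhr1* (-0.11) did not pass. By quantitative PCR the study itself reported no change of *Pomc* mRNA in its knockdown lines, which included a line with another *Creb3l1* shRNA. Its methods name *Rpl19* and, for pituitary, *Sdha* as the housekeeping genes. *Rpl19* itself fell in the libraries used here (log2 fold change -0.13). Markers of other pituitary hormone cells summed to at most 9.09 in any library, with 5 of 9 at 0, and of 4 endothelial markers *Cdh5*, *Kdr* and *Emcn* were at 0. The other endothelial marker, *Pecam1*, was detected at a low level and fell from 13.8 ± 3.20 to 6.41 ± 1.39 normalised counts (log2 fold change -1.08, adjusted p = 0.0063), and the endothelial sum was 10.6 to 18.3 in the non-targeting and 4.28 to 7.45 in the knockdown libraries. The leukocyte marker sum ranged from 46.6 to 83.9 in the non-targeting and from 32.1 to 45.4 in the knockdown libraries, with *Ptprc* at 0. The fibroblast marker sum ranged from 814 to 1153 and from 943 to 1681, and the folliculostellate sum from 135 to 199 and from 170.2 to 212. Most of the folliculostellate sum was *Sox2*, which rose from 143.5 ± 23.1 to 179.1 ± 18.3 (log2 fold change 0.33, edgeR, adjusted p = 0.0048). The other markers of that list, *Aldh1l1*, *Fxyd1* and *S100b*, were low and had lower means in the knockdown line. The part of these marker levels in the results below was not tested. In bulk RNA, fewer cells of a kind and less RNA per cell cannot be told apart. Replicate 3 of the non-targeting line held 4.13% of its counts on *Gm42418*, a gene that overlaps ribosomal RNA, against 0.107% to 0.129% in the other 4 libraries of that line. That library was also the lowest of its line for 19 members, and replicate 1 the highest for 22. Replicate 3 of the knockdown line was likewise the lowest of its line for 19 members, with 0.106% of its counts on *Gm42418*. Without replicate 3 of the non-targeting line, 29 members passed the test in place of 30, the loss being *Bnip3l*.

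Matches to ACGTG, a form of the core of the hypoxia response element, in the members with the largest decreases are shown first. These are letters that HIF is known to read, and the other form, GCGTG, was not searched for. The 250 bases before the RefSeq transcription start (GRCm38.p6) were given for 36 of the 40 genes, the others being *Bnip3l*, *Epas1*, *Ndrg1* and *Slc2a3*, and were searched on both strands for ACGTG. Of the members that fell by 0.5 or more on the log2 scale, 7 held it in the window before the RefSeq start nearest the annotated 5′ end of the gene. A stretch of 30 bases around each match, read 5′ to 3′ along the gene's own strand, follows, with each ACGTG or its reverse complement CACGT in capitals. CACGTG holds both.
Car9, chr4:43506995-43507024, plus strand: cctatttccgatgCACGTacagcccgtcca
Pdk2, chr11:95041480-95041509, minus strand: ctcgaggagagcCACGTGtcgaagcgcaag
Ero1a, chr14:45318619-45318648, minus strand: gcgcgcgccgctgCACGTccgcaggggagg
Slc2a1, chr4:119108696-119108725, plus strand: agtcccgccccggACGTGctccccaggccc
Bnip3, chr7:138909597-138909626, minus strand: gcgcacgcgccgCACGTGccacacgctccc
Ldha, chr7:46845647-46845676, plus strand: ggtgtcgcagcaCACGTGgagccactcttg
Ldha, chr7:46845750-46845779, plus strand: agcctaCACGTGggttcccgCACGTccgct
Slc16a3, chr11:120949034-120949063, plus strand: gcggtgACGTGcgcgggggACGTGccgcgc
The match of *Car9* lay 18 bases before the start and that of *Slc2a1* 36 bases before it. In the GENCODE annotation the *Car9* stretch lay in the first exon, those of *Slc2a1* and *Slc16a3* reached into a first exon, those of *Ldha* and *Ero1a* lay in an intron of a longer transcript, and those of *Pdk2* and *Bnip3* lay outside the gene. *Ldha* and *Slc16a3* held several matches. In *Slc16a3* both had the form GACGTG, a G-box core of the kind that CREB3 family factors are known to bind. The matches of *Slc2a1* and *Ero1a* and a match of *Ldha* also had this form, on either strand. In the window nearest the annotated 5′ end, ACGTG was also found for members that did not pass, such as *Pdk3* and *Egln3*. The share of all genes was not counted on that basis. ACGTG, counting every RefSeq start of a gene, was found for 23 of the 36 members (63.9%), for 18.5% of the 27025 genes with a window and for 24.9% of the 10348 other genes that were tested for expression. Its longer form GACGTG was found for 12 members (33.3%), against 5.87% of all genes and 8.84% of the other genes tested. CACGTG was found for 8 members (22.2%), against 6.86% and 9.73%. These forms overlap each other, so the counts do not add up. The list was drawn up by function and holds known HIF targets, so a higher share of ACGTG among members is not an independent result. The 36 members also had 55 windows, against 32851 windows for the 27025 genes, and a gene with more windows can match more often. Among the members that fell, 17 of 27 with a window held ACGTG, and among the other members tested 5 of 7 did. For GACGTG the counts were 8 of 27 and 3 of 7. A match is a run of letters and says nothing of binding.

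Most of the 40 genes were lower in the knockdown line, mostly by small amounts that were close to one another. Of the 37 that had enough counts to be tested, 29 fell, 1 rose and 7 did not pass the test (quasi-likelihood test of edgeR, p-values adjusted after Benjamini and Hochberg over 14336 genes, threshold 0.01). The background was high, since 40.7% of all genes tested passed, 20.1% as decreases and 20.6% as increases. Read against that, 78.4% of the members tested fell. The median log2 fold change of the 37 was -0.33, against -0.0025 over all genes tested. Most members are strongly expressed, and 27 were among the 3584 genes with the highest mean counts. Of these 27, 25 fell, against 23.1% of the 3584. The knockdown libraries lay wholly below the non-targeting libraries for 28 members, against 17.8% of all genes, and wholly above them for 1, against 18.3%. Decreases of at least 1.5-fold were found for 6 members, *Car9*, *Pdk2*, *Ero1a*, *Ndrg1*, *Slc2a1* and *Bnip3*, and for 4.45% of all genes tested.

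**Figure D1:**
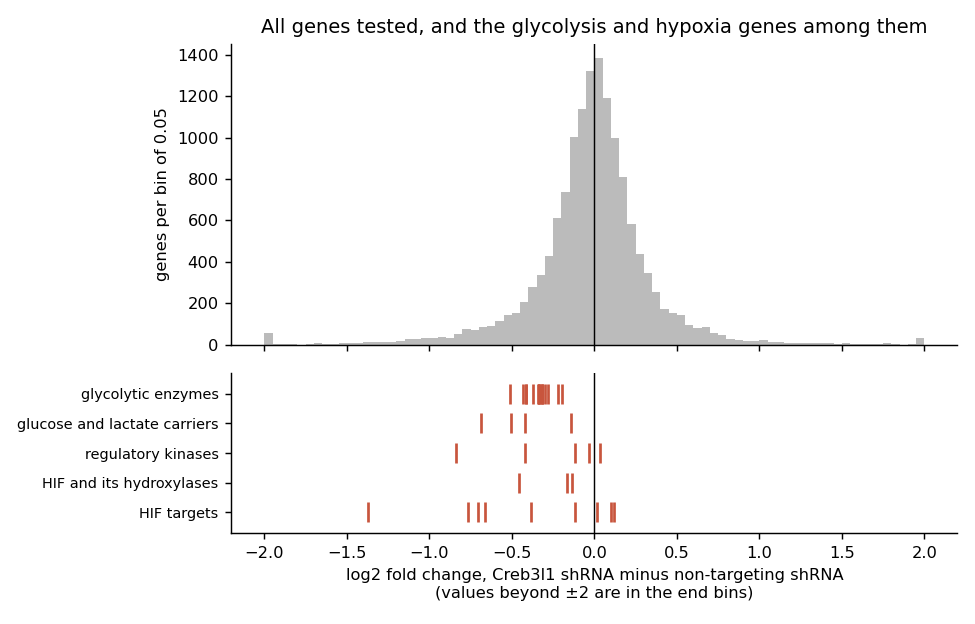
Upper panel, number of genes (of 14336 tested) in bins of log2 fold change 0.05 wide, knockdown minus non-targeting, with values beyond ±2 in the end bins. Lower panel, 1 tick for each of the 37 members tested, by class. The enzymes form a narrow band between -0.51 and -0.20, to the left of the peak of all genes at 0, while the HIF targets are spread from -1.37 to 0.12.

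All 16 glycolytic enzyme genes that were tested fell, with log2 fold changes from -0.51 to -0.20 and a median of -0.33 under TMM scaling. With offsets for GC content and length all 16 still passed, at -0.43 to -0.13, whereas relative to *Gapdh* 2 of them were lower and 2 higher, as given further on. Together these enzymes took 1.88% ± 0.0893 of all counts in the non-targeting libraries and 1.504% ± 0.0231 in the knockdown libraries (SD, n = 5). In no enzyme did the libraries of the lines overlap. The steps are taken below in the order of the pathway, and values are normalised counts in replicates 1 to 5 of each line.

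Hexokinase traps glucose in the cell by phosphorylating it. *Hk1*, the housekeeping form, had 8226, 8282, 7749, 8068 and 8077 normalised counts in the non-targeting libraries and 6647, 6936, 6577, 6581 and 6516 in the knockdown libraries (log2 fold change -0.28, SE 0.025, adjusted p = 1.70e-12). *Hk2*, the inducible form, went from 7646 ± 306 to 6024 ± 220.4 (log2 fold change -0.34, SE 0.028, adjusted p = 2.10e-13). Their levels were alike in each line, and the log2 ratio of *Hk1* to *Hk2* was 0.080 in the non-targeting and 0.14 in the knockdown libraries, a difference that did not pass the exact permutation test (adjusted p = 0.0847), although it did without knockdown replicate 5 (0.083, adjusted p = 0.0272). *Gpi1* encodes the isomerase that makes fructose 6-phosphate. It had 31879.7, 30023, 28799, 30729.9 and 30491 normalised counts in the non-targeting libraries and 22887, 23157, 22117, 22835 and 23074 in the knockdown libraries, a fall to 75.1% of control (log2 fold change -0.41, SE 0.022, adjusted p = 2.40e-19).

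Phosphofructokinase commits the sugar to glycolysis and is a tetramer of muscle, liver and platelet subunits. The platelet subunit *Pfkp* was the most abundant of these, with 24844, 24106, 22922, 24131 and 23680.2 normalised counts in the non-targeting libraries and 19154, 19898, 18874, 19707 and 19502 in the knockdown libraries (log2 fold change -0.30, SE 0.022, adjusted p = 3.42e-15). *Pfkl*, the liver subunit, fell from 5281 ± 340.2 to 4604 ± 177 (log2 fold change -0.20, SE 0.037, adjusted p = 1.32e-04). The muscle subunit *Pfkm* fell from 990.4 ± 34.9 to 743 ± 15.8 (log2 fold change -0.42, SE 0.040, adjusted p = 1.46e-11). The mix of subunit mRNAs shifted, and the log2 ratio of *Pfkm* to *Pfkl* was lower in the knockdown line by 0.22 (difference -0.22, exact two-sided permutation test, adjusted p = 0.0159 over 12 pairs of isoforms).

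Aldolase cleaves fructose 1,6-bisphosphate into trioses, which triosephosphate isomerase interconverts. *Aldoa* had 66454, 61592, 63087, 67323 and 65636 normalised counts in the non-targeting libraries and 51553, 52756, 50337, 52435 and 52844 in the knockdown libraries (log2 fold change -0.32, SE 0.021, adjusted p = 6.97e-15), and its log2 fold change was -0.21 with the GC and length offsets. A further gene model carries the symbol *Aldoa* upstream of it on chromosome 7, and it had 206 ± 16.5 normalised counts in the non-targeting and 189 ± 15.7 in the knockdown libraries and no call (log2 fold change -0.12, adjusted p = 0.218). *Aldoc*, the brain form, fell by a like amount (log2 fold change -0.32, SE 0.030, adjusted p = 4.76e-12), and the difference of the log2 ratio of the pair was -0.00096 (exact permutation test, adjusted p = 0.96). With the GC and length offsets *Aldoc* was at -0.27, against -0.21 for *Aldoa*. *Tpi1* had 24508, 23666, 22879, 24595 and 24060.2 normalised counts in the non-targeting libraries and 18996, 19549, 18939, 19445 and 19275 in the knockdown libraries (log2 fold change -0.32, SE 0.021, adjusted p = 3.94e-16).

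*Gapdh* (chr6:125161715-125166467, minus strand) oxidises glyceraldehyde 3-phosphate and is widely used as a reference gene. It had 55649, 53369.5, 55138, 56635 and 54331 normalised counts in the non-targeting libraries and 44482, 44898, 43136, 44135 and 41659 in the knockdown libraries. The lowest non-targeting library lay above the highest knockdown library, and the mean went from 55025 ± 1247 to 43662 ± 1295, to 79.3% of control (log2 fold change -0.33, SE 0.020, adjusted p = 1.14e-17). *Pgk1*, the first step that makes ATP and also a common reference gene, had 12219, 11148, 11095, 11996 and 11673 normalised counts in the non-targeting libraries and 8939, 8546, 8297, 8704 and 8592 in the knockdown libraries (log2 fold change -0.43, SE 0.026, adjusted p = 4.05e-17). Of 14 other common reference genes, all of them tested, 3 fell, 3 rose and 8 did not pass the test. Their median was -0.048, and they ranged from -0.29 for *B2m* to 0.23 for *Gusb*, so *Gapdh* and *Pgk1* lay below the whole range. The decreases were *B2m*, *Rplp0* (-0.21) and *Rpl19* (-0.13), and the increases *Gusb*, *Tubb5* (0.13) and *Actb* (0.079). The values of *Rpl13a* (-0.13), *Ppia* (-0.067), *Ywhaz* (-0.059), *Hprt* (-0.056), *Tbp* (-0.041), *Sdha* (0.017), *Polr2a* (0.026) and *Eef1a1* (0.039) did not pass.

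Phosphoglycerate mutase and enolase lead to phosphoenolpyruvate, and pyruvate kinase makes pyruvate from it. *Pgam1* had 4097, 4046, 4012, 4008 and 4061 normalised counts in the non-targeting libraries and 2991, 3107, 3073, 3215 and 3226 in the knockdown libraries (log2 fold change -0.37, SE 0.027, adjusted p = 4.08e-15). *Eno1*, the ubiquitous enolase, had 40282, 37839, 37003, 39682 and 39113 normalised counts in the non-targeting libraries and 33201, 33833, 31961, 33514 and 33589.5 in the knockdown libraries (log2 fold change -0.22, SE 0.021, adjusted p = 1.54e-11). Its log2 fold change was -0.13 with the GC and length offsets. The neuronal enolase *Eno2* fell further, to 79.4% of control against 85.7% for *Eno1*, and the log2 ratio of *Eno2* to *Eno1* differed between the lines (-0.11, exact permutation test, adjusted p = 0.0159). *Pkm* had 70979, 67301, 66040.5, 70514 and 69551 normalised counts in the non-targeting libraries and 55277, 55332, 53221, 54653 and 54801 in the knockdown libraries (log2 fold change -0.33, SE 0.019, adjusted p = 2.69e-18).

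The largest decrease among the enzymes was that of *Ldha*, which makes lactate. It had 34817, 33733, 32141, 34427 and 34524 normalised counts in the non-targeting libraries and 24100.3, 23724, 23348, 24257 and 23759 in the knockdown libraries, and fell to 70.3% of control (log2 fold change -0.51, SE 0.021, adjusted p = 4.74e-23). *Ldhb*, the subunit favoured in oxidative tissues, was close to absent in both lines, with 9 reads in all 5 non-targeting libraries and 7 in all 5 knockdown libraries, too few to test.

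Per kilobase of the principal annotated transcript, the most abundant enzyme mRNAs of the non-targeting line were *Aldoa* at 42898 ± 1588 normalised counts, *Gapdh* at 38749.8 ± 878 and *Pkm* at 28321 ± 874 (SD, n = 5). *Ldha* at 19212 ± 609 and *Eno1* at 19134 ± 663 did not differ beyond their spread, and *Tpi1* (14898 ± 436) and *Gpi1* (10536 ± 388) followed. *Pfkm* was the lowest of the enzymes tested on this scale at 344 ± 12.1. The order depends on the transcript length used. In the knockdown line *Ldha* was at 13498 per kilobase and *Eno1* at 16389.

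**Figure D2:**
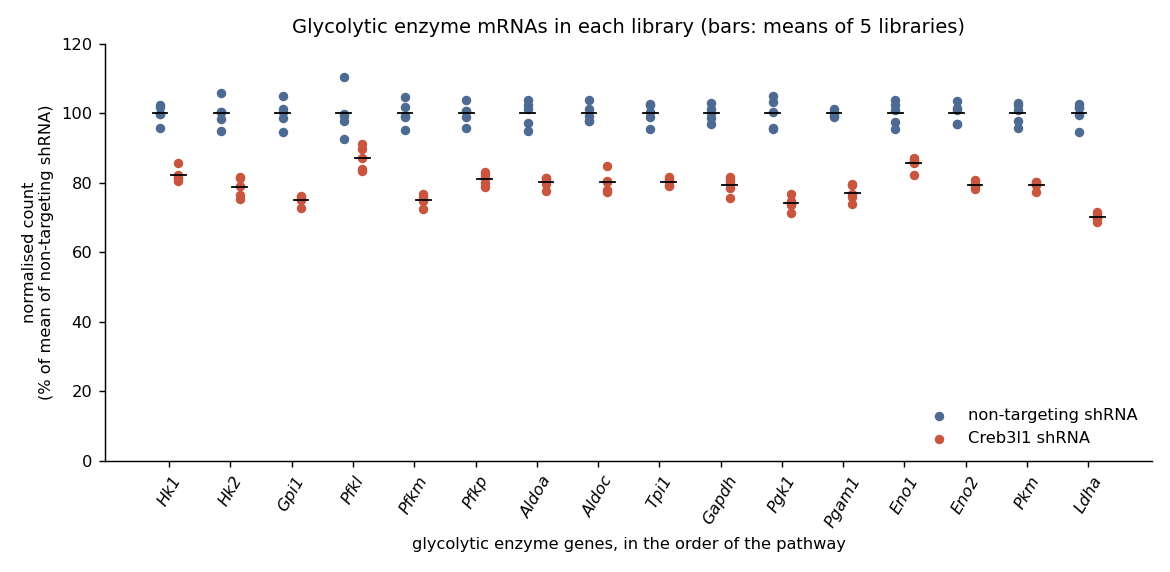
Normalised count of each of the 16 enzyme genes tested, as a percentage of the mean of the non-targeting libraries, in the order of the pathway. Each point is 1 library and each bar the mean of 5. The knockdown points lie below the non-targeting points for every gene, with *Pfkl* and *Eno1* nearest to control and *Ldha* farthest from it.

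Several of these transcripts share sequence with pseudogenes or paralogs, so that reads may have been split between them. The share of 75-base windows of the longest transcript that also occur in another gene's transcript was over 10% for 9 members: *Pgk1* (67.5%), *Eno1* (65.4%), *Bnip3* (46.3%), *Pgam1* (40.6%), *Pfkfb2* (25.3%), *Gapdh* (22.8%, with 114 other genes), *Pkm* (19.6%), *Bnip3l* (18.7%) and *Ldhb* (16.7%). When the counts of the genes that share windows were added, the log2 ratio of the line means of *Gapdh* stayed at -0.33, and those of *Pgk1* (-0.43), *Eno1* (-0.22) and *Pgam1* (-0.37) also kept their values. The added counts were 10.8% of the non-targeting mean for *Gapdh*, but 0.161% for *Pgk1*, 0.329% for *Eno1* and 0.494% for *Pgam1*. Counts that few could hardly move a ratio, so for *Pgk1*, *Eno1* and *Pgam1* the sum cannot show whether reads were split. The sign of *Slc2a3*, of which 0.615% of windows were shared, turned from -0.14 to 0.013, as the 8 other genes together had far more counts than *Slc2a3* itself.

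Glucose enters through SLC2A carriers and lactate leaves through SLC16A carriers, and 3 of the 4 carriers listed fell. *Slc2a1* (GLUT1), the basal glucose carrier and a HIF target, had 4985, 5018, 4664, 4920.2 and 4848 normalised counts in the non-targeting libraries and 2951, 3104, 3029.5, 2993 and 3089.9 in the knockdown libraries. All 5 knockdown libraries lay far below the lowest non-targeting one, and the level fell to 62.1% of control (log2 fold change -0.69, SE 0.027, adjusted p = 1.20e-23). *Slc2a3* (GLUT3) had a far lower level, from 52.2 ± 2.51 to 47.4 ± 3.68, and its ranges overlapped (log2 fold change -0.14, SE 0.15, adjusted p = 0.444). The log2 ratio of *Slc2a3* to *Slc2a1* was higher in the knockdown line by 0.55 (exact permutation test, adjusted p = 0.0159).

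The lactate exporter *Slc16a3* (MCT4), a HIF target, had 9045, 9089, 8680.2, 9035 and 8802 normalised counts in the non-targeting libraries and 6238, 6373, 6029, 6207 and 6620.5 in the knockdown libraries (log2 fold change -0.50, SE 0.026, adjusted p = 4.30e-20). *Slc16a1* (MCT1) fell from 1580.2 ± 42.3 to 1182 ± 33.5 (log2 fold change -0.42, SE 0.034, adjusted p = 1.14e-13). The ratio of *Slc16a3* to *Slc16a1* differed by -0.087 on the log2 scale (exact permutation test, adjusted p = 0.0272), and it did not pass without non-targeting replicate 2 (-0.072), 3 (-0.084) or 4 (-0.088) or without knockdown replicate 1 (-0.077), each with an adjusted p of 0.0544 by the same exact test. The ratio of *Pfkp* to *Pfkl* (-0.10, exact permutation test, adjusted p = 0.0357) lost its call without non-targeting replicate 2, 3, 4 or 5 or knockdown replicate 1, 2 or 5, with differences from -0.11 to -0.090 and adjusted p-values of 0.0635 or 0.0714 by the exact test. With a library left out fewer assignments remain, so the smallest possible p of this test is larger than with all 10 libraries. A call can thus be lost without a smaller difference, as for *Pfkp* to *Pfkl* without non-targeting replicate 5 (-0.108, against -0.104 with all libraries). With the GC and length offsets *Slc16a3* was at -0.48 and *Slc16a1* at -0.46, whereas *Pfkp* was at -0.41 and *Pfkl* at -0.16.

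Pyruvate dehydrogenase kinases inactivate pyruvate dehydrogenase, which acts on pyruvate inside the mitochondria. *Pdk2* had 983, 898, 872, 877 and 866 normalised counts in the non-targeting libraries and 487, 522, 491, 515 and 494 in the knockdown libraries. It fell to 55.8% of control (log2 fold change -0.84, SE 0.045, adjusted p = 3.42e-19). *Pdk1*, the form best known as a HIF target, fell from 2959.6 ± 119 to 2214 ± 101.3 (log2 fold change -0.42, SE 0.033, adjusted p = 3.95e-14). *Pdk3* went from 930.3 ± 47.9 to 908 ± 39.3, and its ranges overlapped (log2 fold change -0.03, SE 0.042, adjusted p = 0.539). Against *Pdk1*, *Pdk2* was lower by 0.42 (difference of log2 ratios -0.42) and *Pdk3* higher by 0.38 in the knockdown line (exact permutation test, adjusted p = 0.0159 for each). In the non-targeting line the counts of *Pdk2* and *Pdk3* had been alike, at 899 and 930.3.

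The PFKFB enzymes set the level of fructose 2,6-bisphosphate, the activator of phosphofructokinase. None of them passed the test. *Pfkfb2* had 237, 269, 314, 268 and 272 normalised counts in the non-targeting libraries and 311, 260.1, 281, 242 and 295 in the knockdown libraries (log2 fold change 0.04, SE 0.078, adjusted p = 0.736). *Pfkfb4*, a HIF target, went from 215 ± 6.71 to 199 ± 15.5 (log2 fold change -0.12, SE 0.078, adjusted p = 0.222), and *Pfkfb3* had 1 read in all 10 libraries.

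Of the HIF genes, *Hif1a* (chr12:73901375-73947530, plus strand), the alpha subunit, had 2587, 2657, 2662, 2554 and 2555 normalised counts in the non-targeting libraries and 2429, 2341, 2301, 2366 and 2388 in the knockdown libraries. The ranges did not overlap, and the decrease was small, to 90.9% of control (log2 fold change -0.14, SE 0.029, adjusted p = 1.24e-04). With the counts of the 2 genes that share windows with it added, one of them *Gm15283* on the opposite strand, the log2 ratio of the means of *Hif1a* was -0.17 in place of -0.14. *Epas1* (HIF-2 alpha) had 3 reads in the 5 libraries of each line and was not tested. The prolyl hydroxylase *Egln1* had 5714, 5605, 5184, 5269.5 and 5411 normalised counts in the non-targeting libraries and 4813, 4946, 4731, 4878 and 4889 in the knockdown libraries (log2 fold change -0.16, SE 0.028, adjusted p = 3.25e-06). *Egln3*, a hydroxylase that is itself a HIF target, was low, from 22.7 ± 3.41 to 16.5 ± 3.89, and did not pass (log2 fold change -0.45, SE 0.24, adjusted p = 0.117).

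The further HIF targets did not move together. Of 9 genes, 6 fell, *Vegfa* rose, and *Adm* and *Mxi1* did not pass. *Car9*, a carbonic anhydrase at the cell surface that offsets acid and is a much used marker of hypoxia, had 385, 312, 315, 334 and 356 normalised counts in the non-targeting libraries and 105.7, 119, 144, 135 and 154 in the knockdown libraries. The knockdown libraries lay far below all of the non-targeting ones, and the level fell to 38.6% of control (log2 fold change -1.37, SE 0.088, adjusted p = 9.30e-17), the largest decrease among the 37. *Gm12454* overlaps *Car9* on the opposite strand, and with its counts added the log2 ratio of the line means of *Car9* went from -1.37 to -1.24.

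*Ero1a*, an oxidase that forms disulphides in the endoplasmic reticulum, had 7559, 7395, 7130.0, 7213 and 7343 normalised counts in the non-targeting libraries and 4527, 4085, 4067, 4336 and 4558 in the knockdown libraries (log2 fold change -0.76, SE 0.030, adjusted p = 7.01e-23). *Ndrg1* (chr15:66929318-66969640, minus strand), a gene induced by stress and hypoxia, had 12502, 11545, 10719, 11316 and 11785 normalised counts in the non-targeting libraries and 7177, 7211, 6783, 6977 and 7333 in the knockdown libraries (log2 fold change -0.71, SE 0.032, adjusted p = 2.38e-14). *Bnip3*, which marks mitochondria for mitophagy, had 9612, 9062, 9085, 8875 and 9512 normalised counts in the non-targeting libraries and 6148, 5343, 5401, 6021 and 6202 in the knockdown libraries (log2 fold change -0.66, SE 0.045, adjusted p = 7.93e-08). In each of these the lines were separated by a wide gap.

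The relative of *Bnip3*, *Bnip3l*, moved little, from 1773 ± 45.5 to 1631 ± 92.5, and its ranges overlapped (log2 fold change -0.12, SE 0.035, adjusted p = 0.0039). That call was lost with libraries scaled by their totals (-0.11, adjusted p = 0.0151), and without non-targeting replicate 3 (-0.12, adjusted p = 0.0136) or 5 (-0.10, adjusted p = 0.0182) or knockdown replicate 2 (-0.094, adjusted p = 0.014) or 3 (-0.10, adjusted p = 0.019) (edgeR). The log2 ratio of *Bnip3l* to *Bnip3* was higher by 0.54 in the knockdown line (exact permutation test, adjusted p = 0.0159). *Ankrd37*, an ankyrin repeat protein, fell from 2480.5 ± 123 to 1903 ± 48.5 (log2 fold change -0.38, SE 0.033, adjusted p = 6.78e-13).

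*Vegfa*, the angiogenic growth factor and the best known HIF target, was the single member that rose. The gene lies at chr17:46016993-46032369 on the minus strand. It had 8301, 8193, 8015, 8063 and 7963 normalised counts in the non-targeting libraries and 8875, 8739.8, 8696, 8313 and 8922 in the knockdown libraries. Every knockdown library lay above every non-targeting library, but the step was small, to 107.4% of control (log2 fold change 0.10, SE 0.024, adjusted p = 3.77e-04). *Adm*, which encodes the peptide adrenomedullin, had 299.7, 306, 284, 308 and 258 normalised counts in the non-targeting libraries and 273, 316, 317, 333 and 343 in the knockdown libraries (log2 fold change 0.12, SE 0.072, adjusted p = 0.173). *Mxi1*, a MYC antagonist, went from 2436 ± 88.8 to 2463 ± 63.4 (log2 fold change 0.02, SE 0.031, adjusted p = 0.703). The targets thus ran from *Car9* at 38.6% of control to *Vegfa* at 107.4% and *Adm*, which did not pass, at 108.6%.

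**Figure D3:**
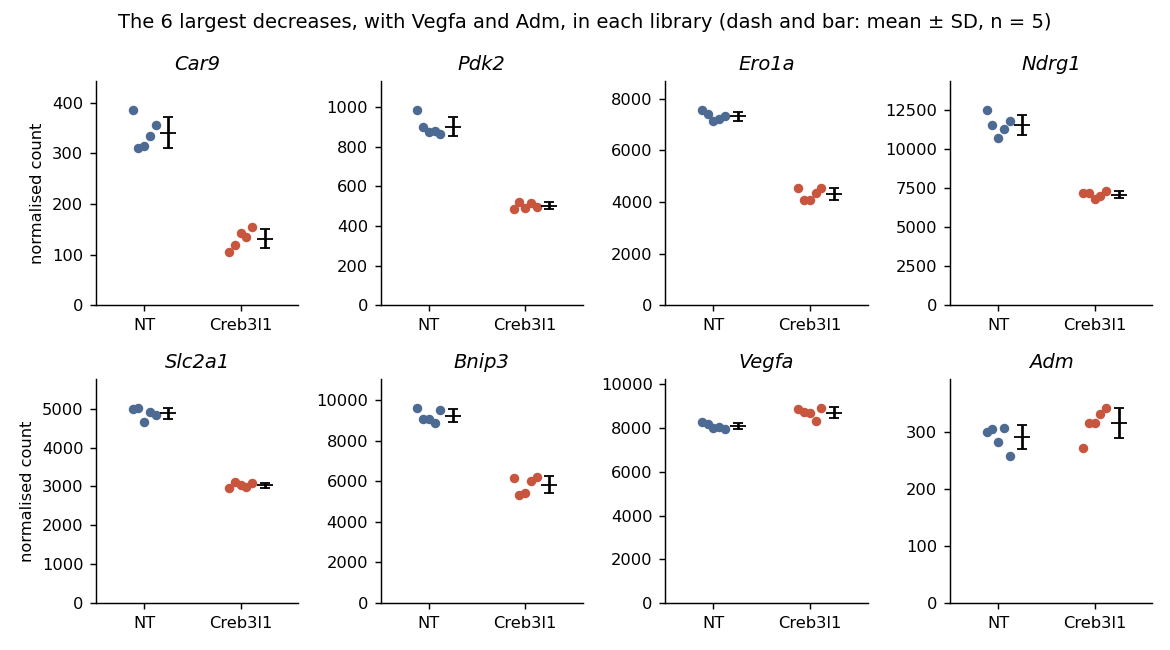
Normalised count in each library for the 6 members with decreases of at least 1.5-fold and for *Vegfa* and *Adm*. Points are libraries (NT, non-targeting shRNA), and the dash and bar beside them the mean ± SD of 5. The lines do not overlap for *Car9*, *Pdk2*, *Ero1a*, *Ndrg1*, *Slc2a1*, *Bnip3* and *Vegfa*, and they overlap for *Adm*.

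**Figure D4:**
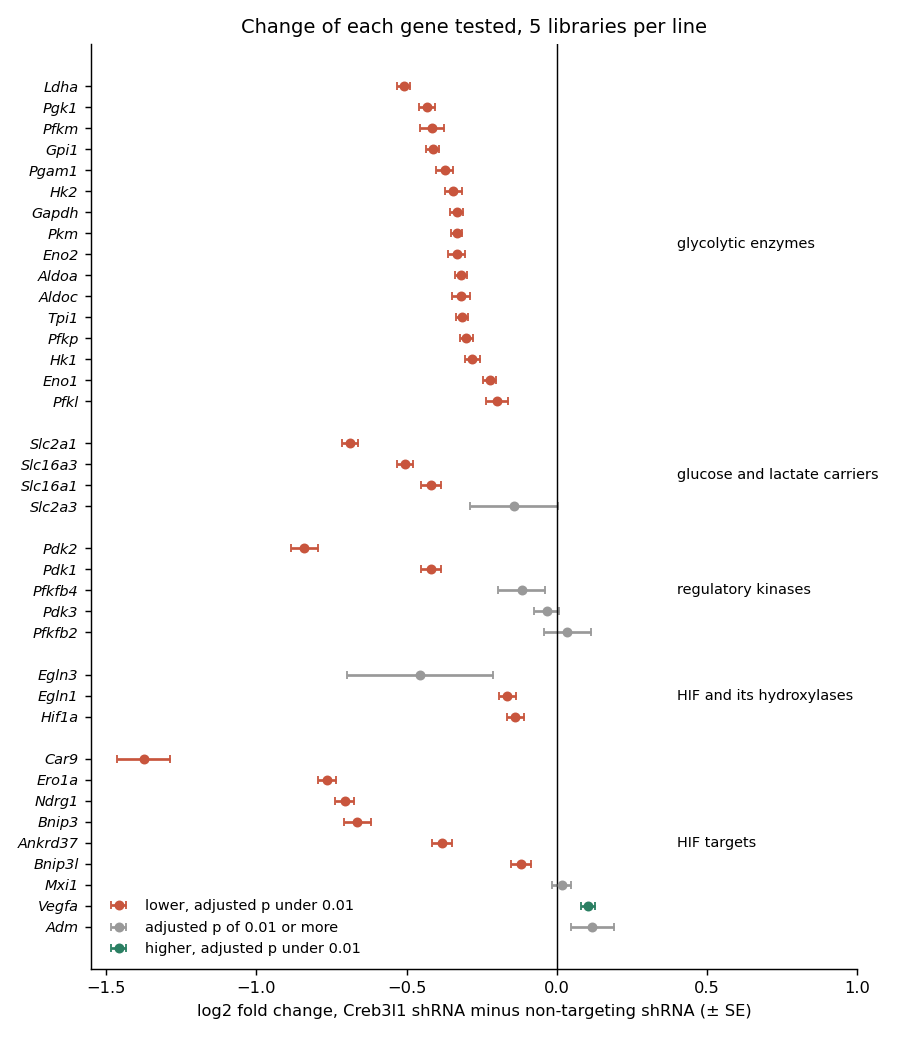
Log2 fold change (knockdown minus non-targeting) with its SE for the 37 members tested, grouped by class and sorted within it. Colours mark genes that fell, rose or did not pass at an adjusted p of 0.01. The enzymes lie between -0.51 and -0.20, and *Vegfa* is the single increase that passed.

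Because *Gapdh* itself fell, the members were also measured with each library scaled to its own *Gapdh* count, as in a quantitative PCR with *Gapdh* as the reference. This scaling raised the median of all genes by 0.33 on the log2 scale, and 66.3% of all genes then passed as increases and 3.96% as decreases. Of the 36 other members tested, 10 rose, 9 fell and 17 did not pass relative to *Gapdh*, and their median was 0.00083. The decreases were *Car9* (-1.04), *Pdk2* (-0.51), *Ero1a* (-0.43), *Ndrg1* (-0.37), *Slc2a1* (-0.35), *Bnip3* (-0.33), *Ldha* (-0.18), *Slc16a3* (-0.17) and *Pgk1* (-0.098). Of the enzymes, *Eno1* (0.11) and *Pfkl* (0.14) were higher relative to *Gapdh*, and *Hif1a* (0.20), *Egln1* (0.17) and *Bnip3l* (0.22), which fell with the main scaling, also had the opposite sign. The other increases relative to *Gapdh* were *Pdk3* (0.30), *Mxi1* (0.35), *Pfkfb2* (0.37), *Vegfa* (0.44) and *Adm* (0.45). *Pkm* (0.00074), *Eno2* (0.00091), *Aldoc* (0.016), *Aldoa* (0.017), *Tpi1* (0.019) and *Hk2* (-0.0097) lay within 1 SE of 0 on this scale. With the scaling by library totals or by DESeq2's size factors, no member changed sign.

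**Figure D5:**
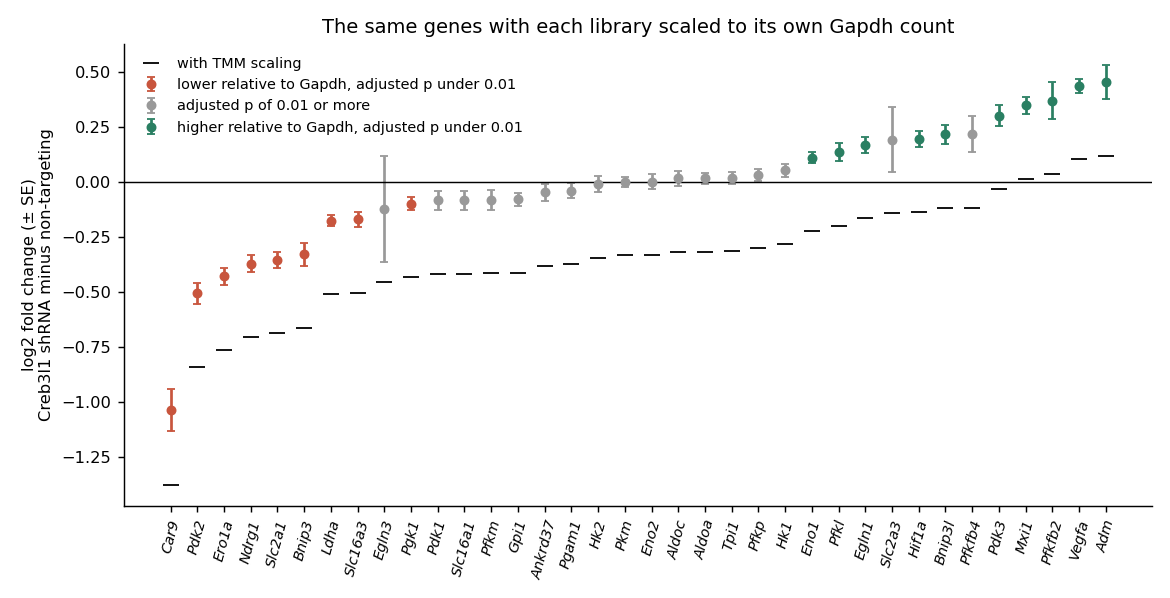
Log2 fold change (knockdown minus non-targeting) with its SE of 36 members when each library was scaled to its own *Gapdh* count, sorted by value. Black dashes give the same genes with TMM scaling, which lie lower by about the change of *Gapdh*. Relative to *Gapdh* the middle of the list lies near 0, from *Car9* at -1.04 to *Adm* at 0.45.

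Other genes of the same pathways, 112 in 7 lists, moved less uniformly. Of the 86 tested, 38 fell, 14 rose and 34 did not pass, beside 20.1% and 20.6% of all genes. Among 8 other isoforms of glycolytic enzymes and sugar kinases tested, 3 fell and 0 rose. These were the muscle enolase *Eno3* (-0.46), *Bpgm* (-0.23), which makes 2,3-bisphosphoglycerate, and the ADP-dependent sugar kinase *Adpgk* (-0.20).

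In gluconeogenesis and glycogen metabolism 7 of 12 genes tested fell and 2 rose. Glycogen synthase *Gys1* fell from 3509 ± 123 to 2536 ± 140.4 (log2 fold change -0.47, SE 0.033, adjusted p = 7.84e-15), and phosphoglucomutase *Pgm1* (-0.38) and the branching enzyme *Gbe1* (-0.23) fell as well. The glycogen phosphorylases *Pygm* (0.36) and *Pygb* (0.094) rose. In the pentose phosphate pathway, which branches off at glucose 6-phosphate and makes NADPH, 4 of 8 genes fell and 0 rose. Its first enzyme *G6pdx* had 2881, 2896, 3037, 2955 and 2917 normalised counts in the non-targeting libraries and 1366, 1436, 1325, 1369 and 1373 in the knockdown libraries. It fell to 46.8% of control (log2 fold change -1.10, SE 0.031, adjusted p = 1.33e-28), further than any member but *Car9*. The next enzymes *Pgls* (-0.16) and *Pgd* (-0.21) fell less.

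Of 10 genes tested for the entry of pyruvate into mitochondria and for pyruvate dehydrogenase and its regulators, 5 fell and 1 rose. The decreases were led by the pyruvate carrier *Mpc1* (-0.44) and the pyruvate dehydrogenase subunits *Pdhb* (-0.20) and *Pdha1* (-0.17), and the increase was the phosphatase *Pdp2* (0.20). Among 7 other glucose and lactate carriers tested, 4 rose and 2 fell. *Slc16a7* (MCT2, 0.41), the fructose carrier *Slc2a5* (0.19) and *Emb* (0.19), a partner of MCT proteins, rose. *Slc2a6* (-0.50) and *Bsg* (-0.30), the partner of MCT1 and MCT4, fell.

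Of 13 genes tested for partners and degradation of HIF, 2 fell and 5 rose. The decreases were *Hif3a* (-0.41), a further alpha subunit, and *Cited2* (-0.24), which competes with HIF for its coactivators. The coactivators *Crebbp* (0.36) and *Ep300* (0.16) and the ubiquitin ligase subunit *Vhl* (0.16) were among the increases. Of 28 other HIF targets tested, 15 fell and 2 rose. The transcriptional repressor *Bhlhe40* had 1674, 1432, 1330.2, 1309 and 1433 normalised counts in the non-targeting libraries and 759.8, 809, 787, 798 and 764 in the knockdown libraries (log2 fold change -0.87, SE 0.054, adjusted p = 1.97e-11). Its close relative *Bhlhe41* rose from 2481 ± 90.5 to 3132 ± 118 (log2 fold change 0.34, SE 0.031, adjusted p = 4.02e-12). *Stc1* (-0.69), a secreted glycoprotein, and *Fam162a* (-0.60), a mitochondrial protein, fell, and the histone demethylase *Kdm3a* rose (0.085).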

How the data were processed

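RNA of 10 samples of transduced AtT20 cells was poly(A)-selected, prepared with a stranded TruSeq kit and sequenced in pairs. After trimming, the authors used STAR for alignment (GRCm38), featureCounts for counts per Ensembl gene and DESeq2 for their own comparison. Whether strand was used in counting is not given in the sources used here. The deposited table holds raw counts, with no normalisation, for 53801 genes in 10 columns, each mapped to a sample by its name. Symbols, coordinates and transcript lengths came from GENCODE M21 (GRCm38) and RefSeq names, and 53706 genes had a symbol. *Ero1a* is listed there under the synonym *Ero1l*.

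Genes were kept with edgeR's filterByExpr (14336 genes), libraries were scaled with TMM (factors 0.953 to 1.01), and the lines were compared with edgeR 4.0.16 (quasi-likelihood test, R 4.3.3), Benjamini-Hochberg adjustment over all 14336 genes and a threshold of 0.01. A normalised count is the count divided by the effective library size, times the mean effective size. The biological coefficient of variation was 5.37%, and total counts per library are given in the results. For pairs of isoforms, log2 ratios of raw counts (pseudocount 0.5) were compared with two-sided exact permutation tests over the 10 libraries (smallest possible p 0.0079), adjusted over the 12 pairs tested of 15 listed, threshold 0.05. These ratios were not corrected for GC content or transcript length. For the fit relative to *Gapdh*, library sizes were set to the *Gapdh* counts. The scripts were tested on simulated data.

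The members and the lists were chosen with earlier results of these data known, and 3 genes of the lists of other pathway and reference genes are not reported here. Values in every library are given for members called with a log2 change of at least 0.5, for *Gapdh*, *Hif1a* and *Vegfa* and for a member of each other role, and for other pathway genes at most the 3 largest changes in each direction of a list, among called genes whose mean normalised count reached 100.0. Other members are given by means. Replicate numbers did not pair the samples, as correlations of same-numbered libraries' deviations from their line's mean ran from -0.065 to 0.040. The alternatives were other scalings (DESeq2's size factors, library totals), no filter or at least 10 counts in every library, DESeq2 1.42.0, a replicate block, an adjusted p of 0.05, a 1.5-fold minimum, each library left out and, chosen after seeing the data, offsets for GC content and transcript length.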

Additional observations from a re-analysis of the deposited data

Results flagged for a closer look

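Within lines of 5 libraries, 186 sets of values (members, other pathway genes, scaling factors and the share of *Gm42418*) were examined for a library that stood apart from the other 4 by Dixon's criterion, and 12 did, where chance gives about 1 in 20, or 9.3. Among the members, the *Pdk2* count of 983 in non-targeting replicate 1 lay above the other 4 libraries (866 to 898), the *Pfkfb4* count of 227 in non-targeting replicate 4 above 211 to 214, and the *Mxi1* count of 2574 in knockdown replicate 4 above 2418 to 2448. Among the other pathway genes in the non-targeting line, *Pgls* was low in replicate 5 (2269), *Ep300* low in replicate 4 (2072), *Taldo1* high in replicate 4 (3987) and *Pdhx* high in replicate 2 (1359). In the knockdown line, *Pgm1* was low in replicate 3 (3098) and *Pdhb* high in replicate 3 (2689). The TMM factor was low in non-targeting replicate 3 (0.953, others 1.01) and, by a small margin, in knockdown replicate 1 (0.9997, others 1.01). The share of counts on *Gm42418* in non-targeting replicate 3 was 4.13%.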

How the results depend on the processing

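The 29 decreases and 1 increase among the members kept their direction and their side of the threshold with DESeq2, its size factors in edgeR, no filter and at least 10 counts in every library; *Bnip3l* alone lost its call with library totals. With the replicate block, 30 members, 55 other pathway genes and 6013 genes passed, and no member changed its call, although the numbers do not pair the samples. With a minimum of 1.5-fold, 6 members (0 higher, 6 lower), 6 other pathway genes (1 higher, 5 lower) and 1108 genes (470 higher, 638 lower) passed. Leaving out each library gave 29 to 30 members (28 to 29 lower, 1 higher), 48 to 52 other pathway genes (10 to 14 higher, 38 to 39 lower), 5408 to 6026 genes (2750 to 3103 higher, 2625 to 2923 lower), 18 to 20 members relative to *Gapdh* (9 to 11 higher, 8 to 11 lower) and 6 to 8 pairs of isoforms. After correction for GC content and transcript length by offsets, the members' median was -0.27 and no called member lost its call, but *Eno1* went from -0.22 to -0.13 and *Aldoa* from -0.32 to -0.21. Relative to *Gapdh*, *Pfkl*, *Eno1*, *Hif1a*, *Egln1* and *Bnip3l* turned from decreases to increases that passed, as the report gives. *Pdk3*, which had not passed (-0.033), turned to an increase that passed on that scale (0.30). *Slc2a3* (0.19), *Pfkfb4* (0.22), *Hk1*, *Pfkp*, *Aldoa*, *Aldoc*, *Tpi1*, *Eno2* and *Pkm* turned to positive values relative to *Gapdh* that did not pass. Apart from these and from *Slc2a3* with the counts of genes that share its sequence added (0.013), the signs that turned were of values near 0 that did not pass: with these offsets *Pdk3* (0.0067), *Pfkfb2* (-0.0028) and *Mxi1* (-0.037), for *Pfkfb2* also without non-targeting replicate 1 (-0.0073) or knockdown replicate 1 (-0.0083; up to 0.086 over the libraries left out), and for the ratio of *Aldoc* to *Aldoa* without non-targeting replicate 1 (0.0034), 2 (0.0089) or 3 (0.00095) or knockdown replicate 2 (0.014), 3 (0.00074) or 5 (0.0050), with a range over the libraries left out from -0.019 to 0.014. The cause was not tested. For *Ldhb*, *Pfkfb3* and *Epas1* the depth was too low for a test.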
